A study of Homo sapiens with 6 samples.

Results

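The hypoxia genes described here are 38 named members of the oxygen-sensing pathway and its best-known targets, out of 19775 genes read on the arrays. They were listed by name with earlier results of these data known, and every probe set that the platform annotation gives to 1 of these genes alone was taken. This gave 101 probe sets of 54613 tested, and a further 4 that bind transcripts of a second gene were set aside. All 38 genes were measured, 29 of them by more than 1 probe set, and each gene is read by the brightest of its probe sets, by mean level, unless another is named. The spheroids were made of the human mesothelioma line NCI-H226, seeded at 10000 cells for each spheroid in wells coated with poly-HEMA, spun down without any matrix and incubated for 24 hours. They were set against the same untreated line kept as adherent monolayers in RPMI medium with serum. RNA from 3 spheroid cultures and 3 monolayer cultures, labelled as biological replicates, was hybridized to 1 Affymetrix U133 Plus array each. The study used 1 cell line here, the density of the monolayers at harvest for the arrays is not given in the sources used here, and in RNA of whole cultures more cells expressing a gene and more RNA per cell cannot be told apart.

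Cells sense oxygen through hydroxylation of the hypoxia-inducible factor (HIF) alpha subunits. With oxygen, the prolyl hydroxylases of the EGLN family mark HIF1A and EPAS1 for binding by VHL and for destruction, and HIF1AN, an asparaginyl hydroxylase, blocks their activity. Without it the alpha subunits accumulate as proteins, pair with ARNT, and bind a short core, ACGTG or GCGTG, near genes for glycolysis, vessel growth, matrix and survival. The control acts mainly on the proteins, so RNA levels of the subunits and of their targets are separate readouts.

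Signals are MAS5 intensities on a linear scale. For the tests log2 signals were set relative to the median of their array, and a log2 fold change is the spheroid mean minus the monolayer mean of these centred values, given with its standard error (SE). A gene is called higher or lower in spheroids where limma gave it a p under 0.05 after Benjamini-Hochberg adjustment over all tested probe sets. Limma fits each probe set and pools information on the spread across probe sets. Of the 38 genes 15 were higher in spheroids, 0 were lower and 23 did not pass. That is 39.5% of the members, where 3.88% of all genes were called higher and 9.22% lower. Without adjustment, at p under 0.05, the same fit gave 24 of the 38 higher and 1 lower, where 9.62% of all genes were higher and 17.9% lower. The 15 were VHL, VEGFA, ANGPTL4, PFKFB4, INSIG2, HILPDA, P4HA1, ERO1A, KDM3A, BNIP3L, MXI1, BHLHE40, NDRG1, ANKRD37 and DDIT4, of which 12 rose over 2-fold and 4 over 4-fold. Over the 101 probe sets 26 were higher and 0 lower, or 25.7%, where 2.78% of all probe sets were called higher and 6.65% lower. The log2 fold change was above 0 for 31 of the 38 genes, and 46% of all genes lay above 0. The median log2 fold change was 0.63 over the 38 and -0.06 over all genes. All 38 members were read above the median level of the tested probe sets, as were 12376 of the 19775 genes, with a median of -0.12. The shares given for all genes include the dimmer ones.

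The calls depended on how the spread was estimated. Limma without the mean-variance trend called 1 member gene, PFKFB4, and after the same adjustment the methods' t-test called 0 of the 38. At an unadjusted p under 0.05 limma without the trend gave 18 higher and 0 lower, with 8.06% and 13.4% of all genes. At that threshold the methods' t-test gave 19 higher and 2 lower, with 7.78% and 15.9% of all genes. Centring on the array median also lowers spheroids against monolayers. On centred values the whole array gave 1519 probe sets higher and 3630 lower, and the median log2 fold change over all tested probe sets was -0.08. On the signals as deposited this median was 0.07, and the member count became 22 higher and 0 lower. The 15 kept their call there, and EGLN1, P4HA2, PLOD2, KDM4B, BNIP3, FAM162A and WSB1 joined them.

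**Figure D1:**
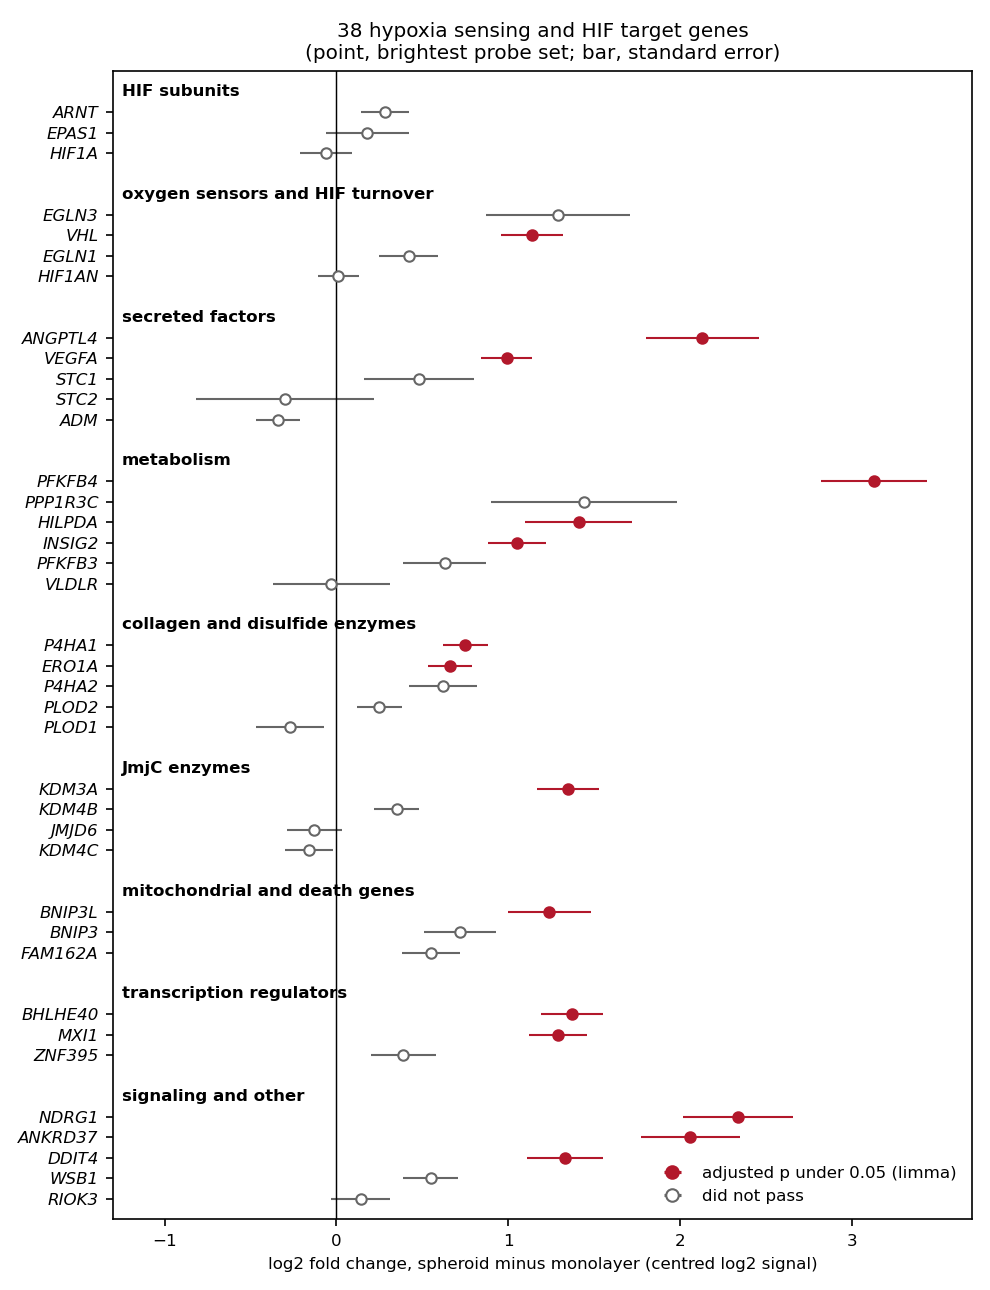
Log2 fold change (horizontal axis, spheroid minus monolayer, centred log2 signal) of the 38 genes at their brightest probe set, grouped by role. Points are fold changes, bars their standard errors by limma, and filled points passed an adjusted p of 0.05. The 15 filled points run from 0.66 for ERO1A to 3.13 for PFKFB4, and the HIF subunits lie between -0.06 and 0.28.

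The HIF subunits themselves did not pass the test. HIF1A, the oxygen-regulated subunit of HIF-1, had signals of 3655, 3662 and 4139 in spheroids and 3971, 3399 and 3407 in monolayers. The groups overlapped, with monolayer 1 above 2 of the spheroids, and the log2 fold change was -0.06 (SE 0.15, adjusted p = 0.882 by limma). On the signals as deposited it was 0.09, so no direction can be given. EPAS1, the HIF-2 alpha subunit, had signals of 1846, 2257 and 2561 in spheroids and 2568, 1516 and 1395 in monolayers. Again monolayer 1 lay level with the highest spheroid while the other monolayers lay below all 3 spheroids (log2 fold change 0.18, SE 0.24, adjusted p = 0.738). ARNT, the constant partner of both alpha subunits, had 157, 185 and 148 in spheroids and 121, 117 and 126 in monolayers, without overlap, but did not pass (log2 fold change 0.28, adjusted p = 0.284). A dimmer of its 7 probe sets was called, at 120, 112 and 92.3 in spheroids against 55.5, 59.2 and 45.2 in monolayers (log2 fold change 0.88, SE 0.19, adjusted p = 0.0233). The other 6 ARNT probe sets were not called.

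Among the sensors and the genes of HIF turnover, VHL was called. VHL, the recognition subunit of the ubiquitin ligase that removes hydroxylated HIF alpha, had signals of 159, 206 and 187 in spheroids and 92.3, 67.5 and 68.1 in monolayers. The lowest spheroid lay well above the highest monolayer, and the mean was 184 ± 23.7 in spheroids and 75.9 ± 14.1 in monolayers (SD, n = 3 each), which is 1.14 on the log2 scale (SE 0.18, adjusted p = 0.00554 by limma). Its other probe set was dim and scattered, at 8.02, 8.01 and 12.2 in spheroids and 3.31, 0.786 and 13.4 in monolayers, and with both probe sets averaged VHL did not pass (1.24, SE 0.48, adjusted p = 0.155). EGLN3, a prolyl hydroxylase that is itself a HIF target, had 51, 48.6 and 19.9 in spheroids and 18.7, 9.65 and 13.9 in monolayers. Spheroid 3 was only just above monolayer 1, and the log2 fold change of 1.29 had a SE of 0.42 and did not pass (adjusted p = 0.0968). EGLN1, the main oxygen-sensing hydroxylase of most cells, had 2125, 1861 and 2135 in spheroids and 1643, 1226 and 1292 in monolayers, above every monolayer as deposited, while after centring the groups overlapped (log2 fold change 0.42, SE 0.17, adjusted p = 0.181). Its 4 probe sets disagreed in sign: the next in brightness gave 527, 571 and 608 in spheroids and 553, 518 and 499 in monolayers, a log2 fold change of -0.03, and the remaining ones gave -0.12 and -0.38. HIF1AN had 399, 438 and 346 in spheroids and 364, 352 and 341 in monolayers, overlapping groups with a log2 fold change of 0.01 (SE 0.12, adjusted p = 0.978). Over the 7 subunits and sensors 1 was higher, or 14.3%, where 3.88% of all genes were called higher. With 1 call among 7 genes these shares cannot be told apart. The median log2 fold change of the 7 was 0.28.

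The 31 targets had a median log2 fold change of 0.66, beside -0.06 over all genes. Of these targets 14 were higher (45.2%), 0 were lower and 17 did not pass, where 3.88% of all genes were called higher and 9.22% lower. In 23 of the 31 targets every spheroid lay above every monolayer on the centred values, which is 74.2% against a background of 11.7%. In 2, ADM and KDM4C, every spheroid lay below, as in 20.6% of all genes, though on the signals as deposited their groups overlap. The difference between the medians of the subunits and sensors and of the targets is a description and was not tested. It narrowed without monolayer 1, where the medians were 0.45 and 0.60.

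Of the 5 secreted factors, VEGFA and ANGPTL4 were higher. VEGFA, the vascular endothelial growth factor, had signals of 1486, 1767 and 1566 in spheroids and 600, 805 and 801 in monolayers. All spheroids stood well above all monolayers (log2 fold change 0.99, SE 0.15, adjusted p = 0.00406 by limma). Its other 3 probe sets ran the same way, with log2 fold changes of 1.26, 0.68 and 1.23, of which the first and last were called. These called ones are of a type that can bind other transcripts. ANGPTL4, a secreted inhibitor of lipoprotein lipase, had 235, 333 and 110 in spheroids and 53.6, 37.3 and 37.7 in monolayers. Spheroid 3 was the lowest of the spheroids and still above every monolayer (log2 fold change 2.13, SE 0.33, adjusted p = 0.00515). Its second probe set had 164, 147 and 55.9 in spheroids and 13, 4.83 and 5.67 in monolayers, the largest change of the 101 probe sets at a log2 fold change of 3.82 (SE 0.49, adjusted p = 0.00218). The monolayer signals there lay below the array medians, and this size is not exact.

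The other 3 secreted factors did not pass. ADM, the vasodilator peptide adrenomedullin, had signals of 3432, 3746 and 3009 in spheroids and 4201, 3923 and 3493 in monolayers, and its log2 fold change of -0.34 (SE 0.13, adjusted p = 0.165) was the lowest among the 38. The stanniocalcins, glycoprotein hormones first found in fish, were dim. STC1 averaged 21.2 ± 2.83 in spheroids and 13.8 ± 1.43 in monolayers, and STC2 46.8 ± 21.9 in spheroids and 55.3 ± 32.5 in monolayers (SD, n = 3 each), with log2 fold changes of 0.48 and -0.30. For STC2 both replicate 1 cultures were the lowest of their groups, at 23.2 in spheroids and 21.8 in monolayers.

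**Figure D2:**
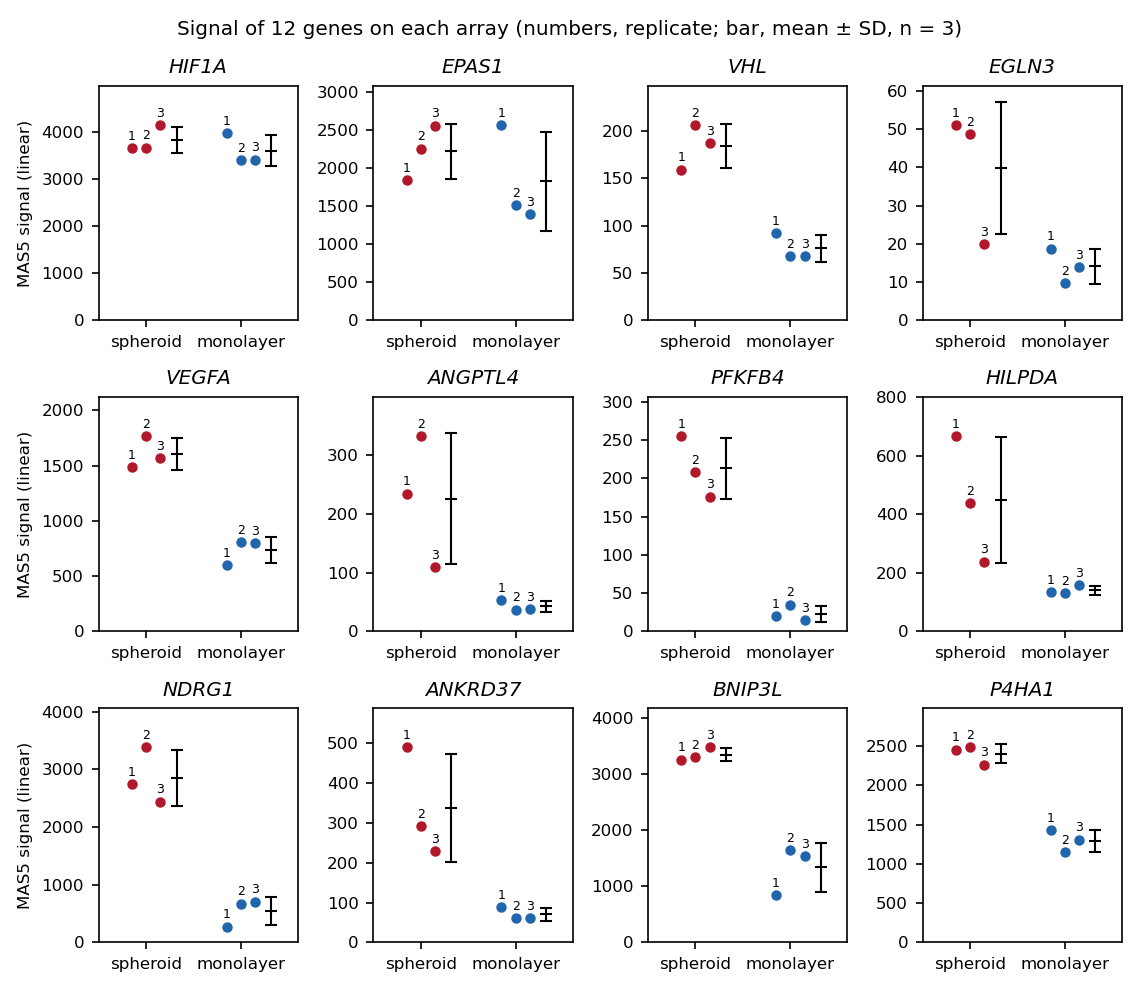
MAS5 signal (vertical axis, linear, from 0) of 12 genes on each array, spheroids left and monolayers right, with the replicate number at each point and the mean ± SD beside it (n = 3). HIF1A and EPAS1 overlap between cultures, while for the other 10 genes every spheroid lies above every monolayer, narrowly so for EGLN3 at 19.9 against 18.7.

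The metabolic targets held the gene with the largest change at a brightest probe set. PFKFB4, a kinase and phosphatase that sets the level of a glycolysis activator, had signals of 255, 208 and 176 in spheroids and 19.7, 34.9 and 14.9 in monolayers. The lowest spheroid was several times the highest monolayer, and the mean was 213 ± 39.8 in spheroids and 23.2 ± 10.5 in monolayers (SD, n = 3 each), a fold change of 8.77 (log2 fold change 3.13, SE 0.31, adjusted p = 8.95e-04 by limma). Monolayers 1 and 3 lay close to their array medians, and this size is not exact. The dim second PFKFB4 probe set gave a log2 fold change of 0.69 and did not pass (SE 0.54, adjusted p = 0.526 by limma). Its paralog PFKFB3 had 218, 172 and 116 in spheroids and 78.3, 106 and 104 in monolayers, with spheroid 3 close to the monolayers (log2 fold change 0.63, SE 0.24, adjusted p = 0.148). INSIG2, which holds back sterol synthesis in the endoplasmic reticulum, had 328, 406 and 418 in spheroids and 139, 184 and 181 in monolayers (log2 fold change 1.05, SE 0.17, adjusted p = 0.00562). HILPDA, a lipid droplet protein that inhibits triglyceride lipase, had 667, 438 and 238 in spheroids and 133, 130 and 159 in monolayers. The spheroids were spread widely among themselves, spheroid 1 being the highest, and the log2 fold change was 1.41 (SE 0.31, adjusted p = 0.0231). Its second probe set had 431, 283 and 150 in spheroids and 112, 97.5 and 103 in monolayers, in the same order (1.19, adjusted p = 0.048). HILPDA did not pass without spheroid 2 (adjusted p = 0.0867), monolayer 2 (0.0841) or monolayer 3 (0.0547).
PPP1R3C, which targets a phosphatase to glycogen, had 346, 302 and 275 in spheroids and 34.8, 165 and 184 in monolayers. Monolayer 1 was far below the other monolayers, and the log2 fold change of 1.44 (SE 0.54) did not pass (adjusted p = 0.145). Without monolayer 1 it was 0.67 and passed (adjusted p = 0.0275). VLDLR, a lipoprotein receptor, averaged 353 ± 82.6 in spheroids and 352 ± 200 in monolayers (SD, n = 3 each), with monolayer 1 the highest of all arrays at 581. Its log2 fold change was -0.03, and 0.41 without that array (adjusted p = 0.262).

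Of the enzymes of collagen maturation and disulfide formation, P4HA1 and ERO1A were higher, by less than 2-fold. P4HA1, a catalytic subunit of the collagen prolyl hydroxylase, had 2455, 2489 and 2266 in spheroids and 1428, 1152 and 1310 in monolayers. The groups were tight and far apart (log2 fold change 0.75, SE 0.13, adjusted p = 0.00893 by limma), but the call was lost without monolayer 2 (adjusted p = 0.0635). A second P4HA1 probe set was near the bottom of the scale, and the mean of both gave 0.25. ERO1A, the oxidase that supplies disulfide bonds in the endoplasmic reticulum, had 1473, 1939 and 1571 in spheroids and 865, 922 and 1048 in monolayers (log2 fold change 0.66, SE 0.13, adjusted p = 0.0134). All 3 of its probe sets were called. The second had 1587, 1688 and 1386 in spheroids and 692, 669 and 675 in monolayers, at a log2 fold change of 1.04 (adjusted p = 0.00124), and the methods' t-test called it alone among the 101. At the brightest probe set the call of ERO1A was lost without spheroid 3 (adjusted p = 0.0509) and without monolayer 2 (0.0753). P4HA2, the other catalytic subunit, had 2448, 2668 and 2209 in spheroids and 2001, 1133 and 1290 in monolayers. Monolayer 1 was close to the spheroids, and the log2 fold change of 0.62 (adjusted p = 0.0943) became 0.87 without it (adjusted p = 0.00459). The lysyl hydroxylases did not pass: PLOD2 had a log2 fold change of 0.25 at means of 5130 ± 305 in spheroids and 3894 ± 112 in monolayers, and PLOD1 -0.27 at 460 ± 40.2 in spheroids and 516 ± 167 in monolayers (SD, n = 3 each).

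The JmjC enzymes, which like the EGLN enzymes need oxygen to work, did not move together. KDM3A, a demethylase of histone H3 lysine 9, had 929, 681 and 622 in spheroids and 268, 251 and 262 in monolayers. The monolayers were nearly equal and every spheroid was over 2-fold above them (log2 fold change 1.35, SE 0.18, adjusted p = 0.0025 by limma). Its second probe set was at the bottom of the scale, with signals under 2 on all arrays, and the mean of both did not pass (0.30, adjusted p = 0.755). KDM4B, also a histone demethylase, averaged 463 ± 30.2 in spheroids and 330 ± 23.3 in monolayers without overlap (SD, n = 3 each), but its log2 fold change of 0.35 did not pass (adjusted p = 0.154), nor did any of its 8 probe sets. KDM4C and JMJD6 had log2 fold changes of -0.16 and -0.13, and the sign of JMJD6 turned to 0.01 on signals as deposited.

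The mitochondrial genes had fold changes above 0 throughout. BNIP3L, a receptor for mitophagy also called NIX, had 3257, 3306 and 3483 in spheroids and 839, 1643 and 1532 in monolayers. The spheroids were nearly equal, and monolayer 1 was well below the other monolayers (log2 fold change 1.24, SE 0.24, adjusted p = 0.0139 by limma, and 0.0641 without spheroid 3). The second probe set gave 1.30 (adjusted p = 0.0219). Its relative BNIP3 had 1232, 1412 and 1211 in spheroids and 485, 801 and 889 in monolayers, with monolayer 1 again the lowest, and did not pass (log2 fold change 0.72, SE 0.21, adjusted p = 0.0668). FAM162A, a mitochondrial protein linked to cell death in hypoxia, had 1666, 1238 and 1234 in spheroids and 764, 851 and 918 in monolayers (log2 fold change 0.55, adjusted p = 0.0873). It passed without spheroid 2 (0.70, adjusted p = 0.0488), and 2 of its dimmer probe sets passed, one with 1402, 1128 and 1162 in spheroids and 634, 788 and 762 in monolayers (0.61, adjusted p = 0.0496), the other at 0.62 (adjusted p = 0.0417). These FAM162A probe sets are of a type that can bind other transcripts, and their values are uncertain to that extent.

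Of the 3 targets that regulate transcription, MXI1 and BHLHE40 were higher. MXI1, an antagonist of MYC, had 715, 781 and 622 in spheroids and 204, 291 and 296 in monolayers (log2 fold change 1.29, SE 0.17, adjusted p = 0.0023 by limma). BHLHE40, a repressor of the circadian and differentiation programs, had 2818, 2599 and 2563 in spheroids and 1043, 1079 and 708 in monolayers (log2 fold change 1.37, SE 0.18, adjusted p = 0.00264). In each of these genes every spheroid was over 2-fold above the highest monolayer. The second BHLHE40 probe set gave 1.39 (adjusted p = 0.00426). ZNF395, a zinc finger protein, had 683, 573 and 530 in spheroids against 510, 412 and 323 in monolayers, with replicate 1 the highest of each group, and did not pass (log2 fold change 0.39, adjusted p = 0.281).

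Of the remaining targets, NDRG1, ANKRD37 and DDIT4 were higher. NDRG1, a stress-responsive protein that restrains metastasis in several tumours, had 2736, 3384 and 2440 in spheroids and 272, 672 and 705 in monolayers. Monolayer 1 was the lowest array by far, but the other monolayers were also several times below every spheroid (log2 fold change 2.34, SE 0.32, adjusted p = 0.00288 by limma, and between 1.89 and 2.58 when 1 array was left out). ANKRD37, an ankyrin repeat protein used in hypoxia signatures, had 491, 293 and 229 in spheroids and 89.4, 61.1 and 60.9 in monolayers, the highest of both groups being replicate 1 (log2 fold change 2.06, SE 0.29, adjusted p = 0.00318). With its dim second probe set averaged in, it did not pass (1.20, adjusted p = 0.101). DDIT4, an inhibitor of mTORC1 also called REDD1, had 3259, 3587 and 3426 in spheroids and 859, 1658 and 1309 in monolayers, close values in spheroids against spread ones in monolayers (log2 fold change 1.33, SE 0.22, adjusted p = 0.0066). WSB1, a ubiquitin ligase subunit that acts on VHL, had 1529, 1269 and 1277 in spheroids and 734, 879 and 904 in monolayers. It missed the threshold (log2 fold change 0.55, adjusted p = 0.0629) and passed without spheroid 2 (0.67, adjusted p = 0.0398). RIOK3, a kinase, averaged 1182 ± 46.4 in spheroids and 986 ± 196 in monolayers (SD, n = 3 each; log2 fold change 0.14, adjusted p = 0.715), while a dimmer probe set had 853, 824 and 769 in spheroids and 425, 506 and 164 in monolayers and did not pass either (1.17, adjusted p = 0.0814). The remaining dimmer RIOK3 probe sets gave log2 fold changes of 0.00, -0.18 and 0.14.

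Among the 15 called genes monolayer 1 was the lowest monolayer in 7, monolayer 2 in 5 and monolayer 3 in 3, and spheroid 1, 2 and 3 was the highest spheroid in 5, 8 and 2. Without both replicate 1 arrays, a choice made after seeing the data, 17 of the 38 were higher and 0 lower, and the 15 kept their call.

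**Figure D3:**
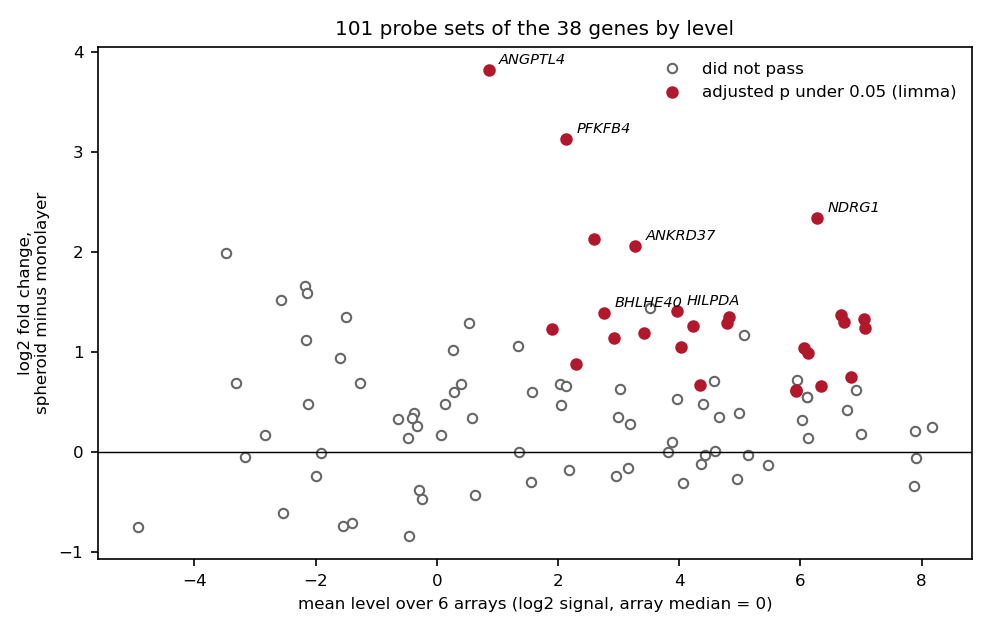
Log2 fold change (vertical axis, spheroid minus monolayer) of the 101 probe sets against their mean centred log2 level over the 6 arrays (horizontal axis, array median at 0). The 26 filled points passed an adjusted p of 0.05 by limma and all lie above the array median, while probe sets below it scatter on either side of 0 and none of them passed.

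Probe sets of 1 gene did not always give the same call. Of the 15 called genes 5, ANGPTL4, BHLHE40, BNIP3L, ERO1A and HILPDA, have several probe sets that were all called. In VEGFA 3 of 4 were called, and in PFKFB4, VHL, P4HA1, KDM3A and ANKRD37 the brighter of 2. In the remaining 4, MXI1, NDRG1, DDIT4 and INSIG2, there was 1 probe set.

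The promoters of the members were searched for the HIF core. Targets of HIF are often known through such elements, so the share among the members is not independent of how they were chosen. RefSeq windows (GRCh38.p14) from 250 bases before to 50 after 1 annotated start were given for 30 of the 38, and each was searched for ACGTG and GCGTG on both strands, where the palindrome CACGTG holds 1 match on each strand. A core was present in 25 of the 30, or 83.3%, and in 56.4% of the 15384 promoters of genes read on the array. It was present in 9 of the 10 called genes with a window and in 16 of the 20 that were not called, so its presence did not part the called members from the rest. At least 2 matches were present in 16 of the 30, beside 28.7% of promoters of genes read. A match is a description of these letters, not a site of binding. The windows of 4 called genes are printed to show how the core lies near the start of genes that rose together, from the gene with the largest change to one with a small change, and that of EGLN1, a sensor that did not pass, is set beside them. Sequences run 5′ to 3′ on the strand of the gene, and capitals mark the core or its reverse complement.
PFKFB4 (chr3:48556754-48557053, minus strand, core at -166 to -162 from the start): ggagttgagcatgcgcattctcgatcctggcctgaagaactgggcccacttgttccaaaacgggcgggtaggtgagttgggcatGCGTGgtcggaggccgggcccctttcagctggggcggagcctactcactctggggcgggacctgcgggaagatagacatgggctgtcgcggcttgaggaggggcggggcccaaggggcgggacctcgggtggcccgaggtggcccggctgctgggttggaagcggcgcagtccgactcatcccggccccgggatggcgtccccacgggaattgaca
ANKRD37 (chr4:185396591-185396890, plus strand, a CACGTG palindrome and a core at -143 to -139): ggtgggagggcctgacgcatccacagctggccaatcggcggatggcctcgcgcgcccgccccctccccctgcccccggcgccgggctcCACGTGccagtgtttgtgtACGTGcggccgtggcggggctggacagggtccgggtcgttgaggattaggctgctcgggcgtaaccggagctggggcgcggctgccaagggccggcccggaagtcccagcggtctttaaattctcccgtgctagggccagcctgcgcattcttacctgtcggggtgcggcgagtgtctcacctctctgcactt
BHLHE40 (chr3:4979187-4979486, plus strand, a palindrome and cores at -174 to -170 and -149 to -145): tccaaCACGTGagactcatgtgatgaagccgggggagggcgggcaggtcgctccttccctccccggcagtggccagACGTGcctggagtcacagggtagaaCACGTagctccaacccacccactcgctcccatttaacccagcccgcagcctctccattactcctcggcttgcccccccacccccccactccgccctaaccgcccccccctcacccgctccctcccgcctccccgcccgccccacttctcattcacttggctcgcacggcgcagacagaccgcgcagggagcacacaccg
P4HA1 (chr10:73096817-73097116, minus strand, core at -86 to -82): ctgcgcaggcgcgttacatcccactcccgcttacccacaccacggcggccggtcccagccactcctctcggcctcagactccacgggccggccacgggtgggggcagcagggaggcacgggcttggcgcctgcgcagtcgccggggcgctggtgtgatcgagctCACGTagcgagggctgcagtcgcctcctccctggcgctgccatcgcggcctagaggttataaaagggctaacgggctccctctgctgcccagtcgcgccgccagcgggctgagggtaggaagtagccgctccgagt
EGLN1 (chr1:231422238-231422537, minus strand, core at -13 to -9): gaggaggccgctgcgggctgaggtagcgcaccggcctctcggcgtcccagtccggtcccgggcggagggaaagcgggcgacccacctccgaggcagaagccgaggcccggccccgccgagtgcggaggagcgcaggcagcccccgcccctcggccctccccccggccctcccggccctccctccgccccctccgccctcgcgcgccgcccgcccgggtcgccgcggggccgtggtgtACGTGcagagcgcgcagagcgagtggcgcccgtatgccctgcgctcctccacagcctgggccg
PFKFB4, P4HA1 and EGLN1 each hold 1 match, though their log2 fold changes were 3.13, 0.75 and 0.42. MXI1, which was higher, has no match in its window, and BNIP3, which did not pass, has 6, the most of the 30.

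Other genes of the pathway that are not among the 38 were read for comparison. Of 13 further genes of sensing and HIF control, among them HIF3A, EGLN2 and the subunits of the VHL ligase, 0 were higher and 0 lower by limma, with a median log2 fold change of -0.21. HIF3A averaged 13.5 in spheroids and 8.6 in monolayers, and EGLN2 5.86 in spheroids and 7.74 in monolayers. Both lay below the median of every array, so a change in them could be missed. Of 16 HIF targets of glycolysis 15 were measured, and 4 were higher, or 26.7%, and 0 lower, with a median of 0.13. ALDOC, an aldolase isoform, had 438, 477 and 332 in spheroids and 24.7, 36.2 and 28.9 in monolayers, a fold change of 12.6 (log2 fold change 3.65, SE 0.19, adjusted p = 1.25e-04 by limma). The glucose transporter SLC2A3, which the study had already picked from these arrays by another probe set, had 174, 294 and 182 in spheroids and 43.4, 62 and 69 in monolayers (log2 fold change 1.74, SE 0.22, adjusted p = 0.00234). SLC2A1 and PDK1 were the other 2, and the bright glycolytic enzymes ALDOA, GAPDH, PGK1, ENO1 and LDHA did not pass, with log2 fold changes of 0.13, 0.02, 0.13, -0.04 and 0.08. In each of these enzymes every spheroid lay above every monolayer on the signals as deposited, while after centring the groups overlapped. Their mean levels lay between percentiles 99.4 and 99.9 of the tested probe sets, and the highest signal on any array was 7257. HIF1A, ADM and PLOD2 lay at percentiles 99.3, 99.2 and 99.6. Whether fold changes are compressed so near the top of the scale was not tested. Of 17 further targets 15 were measured, and 4 were higher and 0 lower, with a median of 0.24. AK4, a mitochondrial adenylate kinase, had 973, 1177 and 837 in spheroids and 170, 280 and 200 in monolayers (log2 fold change 2.07, adjusted p = 6.88e-04), and CA12, a membrane carbonic anhydrase, 104, 115 and 81.4 in spheroids and 17, 18.7 and 15.6 in monolayers (2.39, adjusted p = 7.04e-04). TMEM45A and CCNG2 were the other 2. The probe sets of SLC2A3, CA12, ALDOA and GAPDH are, like those of FAM162A, of a type that can bind other transcripts. The targets of glycolysis and the further targets, at 26.7% each, therefore had called shares between those of the sensing genes and of the 31 targets. Of all genes 3.88% were called higher and 9.22% lower. The share of the sensing genes rests on 1 call, and the shares were not tested against each other.

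**Figure D4:**
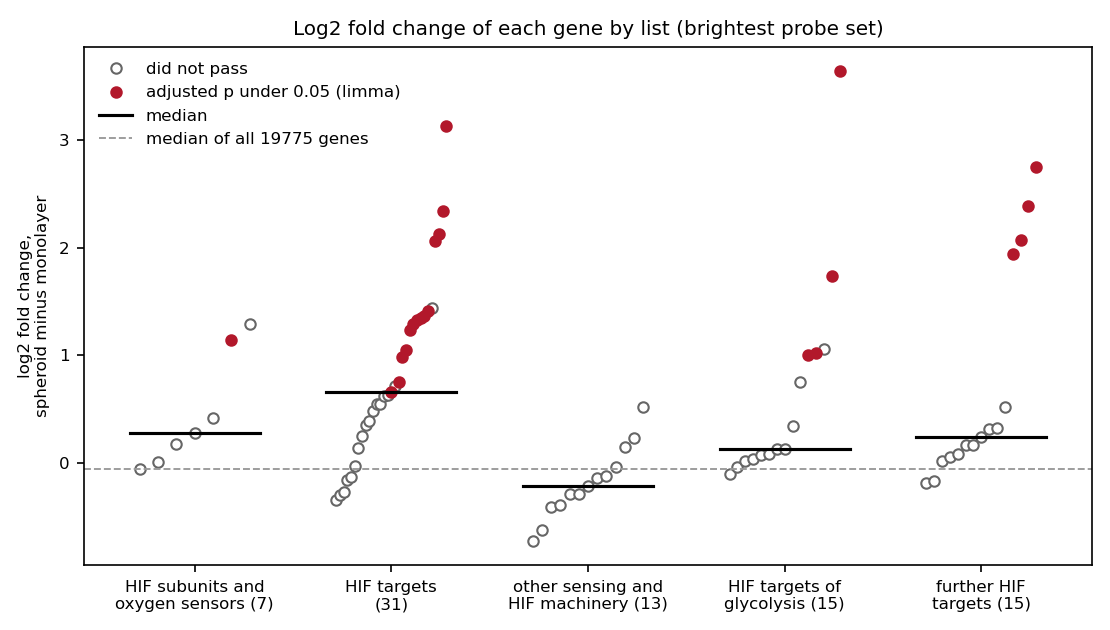
Log2 fold change (vertical axis, spheroid minus monolayer) of each gene at its brightest probe set, in the 7 HIF subunits and sensors, the 31 targets and 3 further pathway lists with the number measured in brackets. Filled points passed an adjusted p of 0.05 by limma, solid lines are list medians (0.28, 0.66, -0.21, 0.13 and 0.24) and the dashed line is the median of all 19775 genes, -0.06.

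The array median signal was 15.6, 18 and 15.2 in spheroids and 14.7, 14.6 and 14.7 in monolayers, and for ACTB the signal of the 3′ probe set over that of the 5′ one, which reflects RNA integrity, was 1.17 ± 0.0603 in spheroids and 1.09 ± 0.0123 in monolayers (SD, n = 3 each, p = 0.1 by a two-sided exact permutation test, which with this number of arrays cannot go below 0.1, and 0.2 once adjusted over 2 control genes). For GAPDH it was 0.901 ± 0.0121 in spheroids and 0.894 ± 0.0174 in monolayers (SD, n = 3 each, exact permutation p = 0.6). Of 10 measured mesothelial markers 1, PDPN, was higher and 0 were lower. WT1 had 2009, 1811 and 1837 in spheroids and 1845, 1452 and 1347 in monolayers, and CALB2 2238, 1317 and 1765 in spheroids and 1582, 163 and 83.6 in monolayers. KRT5 had 910, 267 and 290 in spheroids and 1845, 130 and 79.3 in monolayers, replicate 1 standing apart in each culture. THBD had 96.1, 86.5 and 54.3 in spheroids and 349, 99.9 and 127 in monolayers, every spheroid below every monolayer, and did not pass (log2 fold change -1.24, adjusted p = 0.109 by limma). The summed signal of the mesothelial markers was 23216 to 26461 in spheroids and 16839 to 24718 in monolayers. Of 4 measured leukocyte, 5 endothelial and 5 fibroblast markers, 0, 0 and 1 were higher and 0 lower. Of all genes 3.88% were called higher and 9.22% lower. PDGFRA, the fibroblast marker called, had 107, 40.5 and 47 in spheroids and 4.74, 7.3 and 2.13 in monolayers (log2 fold change 3.67, adjusted p = 0.00514). These monolayer signals lay below the array medians, and the size of the change is not exact. The other fibroblast markers COL1A1, COL3A1, DCN and LUM had log2 fold changes of -0.03, -1.93, 0.64 and 0.77. The endothelial markers PECAM1, VWF, CDH5, KDR and TIE1 had 0.31, 2.01, -0.76, -0.39 and 0.07. For VWF every spheroid lay above every monolayer, with the monolayer signals below their array medians. Monolayer 1 stood far above the other arrays for COL3A1, at 313, and KDR, at 422. In 3 of the 4 leukocyte markers, PTPRC, CD14 and CD3E, every spheroid lay above every monolayer, as in 11.7% of all genes. Their log2 fold changes of 1.83, 0.99 and 0.55 did not pass (adjusted p = 0.106, 0.117 and 0.425). CD3E lay near the array medians, with 15.8, 19.2 and 19 in spheroids and 13.5, 10.3 and 9.78 in monolayers. PTPRC, which defines leukocytes, had 13.3, 13.9 and 12.1 in spheroids and 6.7, 3.51 and 1.56 in monolayers, below the median of every array. The summed signals of these lists were 143 to 179 in spheroids and 104 to 127 in monolayers for leukocyte, 171 to 222 in spheroids and 234 to 474 in monolayers for endothelial, and 1398 to 1694 in spheroids and 1355 to 1592 in monolayers for fibroblast markers, and no marker was listed at 0. The part of these differences in the results was not tested.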

How the data were processed

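RNA of 6 NCI-H226 cultures, 3 spheroid and 3 monolayer, was hybridized to 1 Affymetrix U133 Plus array each. The authors deposited linear signal intensities per probe set, made with the MAS5 algorithm and scaled to a common mean after trimming 2% of probe sets from each side. The methods add a normalization to the median, which the deposited intensities do not show. Detection calls were not used here, so signal over background is unknown, and precision is limited by the number of arrays.

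Signals were transformed to log2 and centred on each array's median, with no pseudocount or filter. Of 54675 probe sets 62 controls were left out, and limma 3.58.1 (R 4.3.3, empirical Bayes with a mean-variance trend) compared the groups at the other 54613. Benjamini-Hochberg adjustment ran over all of them, with 0.05 as the threshold. The platform annotation gives 1 gene to 41097 probe sets, and a gene is read by its single-gene probe set of highest mean level. The fit was tested on simulated data with known changes. Their spread was set by signal level, as the trend assumes, so they cannot decide between the fits with and without the trend.

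The members and lists were chosen with earlier results of these data known. All 38 members are named, with values per array for called genes, genes with a called dimmer probe set, HIF and sensor genes and VEGFA, and means or fold changes for the others. Of each other pathway list, up to 2 called genes of smallest adjusted p are given with values. SLC2A1, PDK1, TMEM45A, CCNG2 and the bright glycolytic enzymes fall outside this rule, as do the values per array of ADM, PFKFB3, PPP1R3C, P4HA2, BNIP3, ZNF395, WSB1 and a dimmer RIOK3 probe set. These were picked with their values known. The alternatives were the signals as deposited, quantile normalization, centring on the 75th percentile, a floor at the 20th percentile (a signal of 3.112), the methods' t-test, limma without the trend, a restriction to probe sets brighter than the median, a replicate block, the mean of a gene's probe sets, and leaving out each array.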

Additional observations from a re-analysis of the deposited data

How the results depend on the processing

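No alternative turned the direction of any of the 15 called genes. They kept their call as deposited, after quantile normalization, with centring on the 75th percentile, with a floor at the 20th percentile, among bright probe sets alone and with the replicate block. These gave 22, 20, 22, 15, 20 and 17 member genes higher and 0 lower. With all probe sets of a gene averaged 11 were higher, and VHL, P4HA1, KDM3A and ANKRD37 were lost. Without the trend 1 member gene and 1 member probe set were higher, and by the methods' t-test 0 and 1. Leaving out single arrays gave 12 to 17 genes higher and 17 to 31 probe sets, the lowest counts without monolayer 2, where HILPDA, P4HA1 and ERO1A were lost. The median of the 7 subunits and sensors was 0.42 as deposited, 0.43 after quantile normalization and 0.41 with the 75th percentile, and that of the targets 0.81, 0.81 and 0.80. Without single arrays these medians lay between 0.25 and 0.45 and between 0.60 and 0.74, and without both replicate 1 arrays they were 0.49 and 0.55. The cause of these shifts was not tested.
Signs turned in genes that had not passed, and none of them passed where its sign was turned. HIF1A, VLDLR and JMJD6 were at 0.09, 0.12 and 0.01 as deposited and at 0.08, 0.11 and 0.01 with the 75th percentile, and VLDLR and JMJD6 at 0.15 and 0.05 after quantile normalization. With probe sets averaged EGLN1, HIF1AN, STC2, KDM4C and JMJD6 were at -0.03, -0.04, 0.15, 0.06 and 0.17. Without both replicate 1 arrays HIF1A, HIF1AN, VLDLR and RIOK3 were at 0.02, -0.01, 0.23 and -0.09. Without single arrays HIF1A ranged from -0.16 to 0.05, HIF1AN from -0.03 to 0.05, STC2 from -0.87 to 0.13, VLDLR from -0.33 to 0.41 and RIOK3 from -0.04 to 0.25.
The groups share replicate numbers, but no label ties a number to a shared culture or day, and they were not taken as pairs. Deviations from the group means correlated at 0.0909, -0.0131 and 0.0223 between the arrays numbered 1, 2 and 3 over all probe sets. Above the median level, where the members are read, they correlated at 0.395, 0.082 and 0.197. Over all probe sets spheroid 1 correlated best with its own number, and above the median level spheroid 1 and spheroid 3 did. With the replicate number as a block 1947 probe sets were higher and 4186 lower, in place of 1519 and 3630, and 17 member genes and 29 member probe sets were higher. The 2 genes gained were P4HA2 and BNIP3 (adjusted p = 0.048 and 0.0316 by limma).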

Other observations

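The 4 probe sets that bind transcripts of a member and of another gene were left out of the counts. The 3 assigned to ZNF395 and FBXO16 had log2 fold changes of 0.59, 0.51 and 0.71 (adjusted p = 0.201, 0.184 and 0.137 by limma), beside 0.39 for the brightest probe set of ZNF395 alone. The one assigned to WSB1 and INVS had 0.18 (adjusted p = 0.795).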
